A study of Mus musculus with 15 samples.

Results

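The genes described here code for the proteins that coat lipid droplets and help to form them: the perilipins Plin1, Plin2, Plin3, Plin4 and Plin5, the CIDE proteins Cidea and Cidec, the FIT proteins Fitm1 and Fitm2, and seipin (Bscl2). These 10 genes were chosen by name and found among the 25700 Ensembl gene identifiers of the count files, of which 25664 matched a mouse symbol. Their mRNA was counted by sequencing in 3T3-L1, a line of mouse preadipocytes that stores fat once confluent cultures have been given dexamethasone, IBMX and insulin. The 5 groups, of 3 libraries each, are named by their labels: wild type (WT) and MIGA2 depleted (MIGA2-KO), both before differentiation (day 0) and at day 6, and MIGA2-GFP, the line that overexpresses this fusion, at day 6 alone. MIGA2, or mitoguardin 2, sits in the outer membrane of mitochondria. All groups are the same cell line, and all day 6 cells had passed through the same differentiation medium. The sources used here do not give how MIGA2 was depleted, whether the depleted line is 1 clone, or which promoter drives MIGA2-GFP. MIGA2-GFP cells at day 0 were not analysed here.

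A lipid droplet is a store of neutral lipid enclosed by a phospholipid monolayer. Triacylglycerol made in the endoplasmic reticulum collects between the leaflets of its membrane, where seipin and the FIT proteins help droplets to form and bud. Perilipins then cover the droplet surface and limit the access of lipases, and CIDE proteins at droplet contacts let small droplets pass lipid to larger ones, which gives adipocytes their few large droplets. Plin1, Plin4 and Cidec are known as genes of fat cells, Plin2 and Plin3 are made in most cells, and Plin5 is best known from oxidative tissue. Several of these genes are textbook targets of PPARγ, which binds with RXR to a direct repeat of AGGTCA spaced by 1 base, and C/EBP factors bind motifs related to TTGCNNAA.

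Promoter sequences are shown for 4 members with different courses over differentiation: Plin1 and Cidec, which were almost without reads at day 0, Plin2, which rose from a high level, and Plin3, which fell in WT cells. RefSeq windows (GRCm38.p6) of 250 bases before an annotated start were searched for every member except Cidea, whose window was not used. Bases of a window from an overlapping exon of the same gene in GENCODE vM21 onward are not printed. The Plin1 and Plin2 stretches lie upstream of the GENCODE gene. The Cidec and Plin3 windows lie inside the gene, downstream of the 5′ ends at 113435760 (Cidec) and 56292873 (Plin3). Plin1 is shown at chr7:79732904-79733026, Cidec at chr6:113434765-113435014, Plin2 at chr4:86670061-86670309 and Plin3 at chr17:56290512-56290761. All are on the reverse strand and written 5′ to 3′. Capitals mark matches, on either strand, to TTGCNNAA (Plin1 and Cidec), AGGTCA (its complement TGACCT in Plin2) and CCAAT (Plin2, and its complement ATTGG in Plin3).
Plin1: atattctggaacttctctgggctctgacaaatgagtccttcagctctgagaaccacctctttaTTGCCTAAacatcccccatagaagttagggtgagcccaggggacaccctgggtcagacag
Cidec: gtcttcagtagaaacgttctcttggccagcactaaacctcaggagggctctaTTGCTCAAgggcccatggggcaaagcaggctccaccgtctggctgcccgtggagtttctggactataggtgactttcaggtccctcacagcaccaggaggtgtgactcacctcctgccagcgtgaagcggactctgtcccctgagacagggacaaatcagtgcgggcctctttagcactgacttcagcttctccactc
Plin2: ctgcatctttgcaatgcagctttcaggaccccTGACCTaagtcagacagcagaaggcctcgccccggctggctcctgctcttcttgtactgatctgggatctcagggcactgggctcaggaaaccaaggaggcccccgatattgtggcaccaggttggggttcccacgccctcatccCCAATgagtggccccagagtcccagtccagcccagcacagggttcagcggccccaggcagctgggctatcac
Plin3: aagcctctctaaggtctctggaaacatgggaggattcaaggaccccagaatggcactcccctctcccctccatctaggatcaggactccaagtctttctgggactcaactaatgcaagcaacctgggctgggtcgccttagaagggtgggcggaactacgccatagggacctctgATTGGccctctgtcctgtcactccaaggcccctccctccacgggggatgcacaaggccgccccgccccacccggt

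The TTGCNNAA match lay at positions -187 to -180 from the RefSeq start in Plin1 and at -198 to -191 in Cidec. A second Plin1 match lay at -58 to -51, within an exon of the GENCODE model, and is not shown. The marked Cidec match thus lies within the GENCODE gene. The window of a second RefSeq start of Cidec (chr6:113435761-113436010), which directly adjoins the 5′ end of that gene, had no match. Among 32841 RefSeq windows of this length, 9.57% held TTGCNNAA, 14.0% AGGTCA and 33.9% CCAAT. A repeat of 2 AGGTCA copies 1 base apart, found in 0.0335% of windows, the relaxed repeat with AGGNCA in place of AGGTCA (0.338%), the TATA sequence TATAAA (12.4%) and the E-box CACGTG (6.02%) had no match in any member's window. The Plin1 window held 1 CpG, against a median of 6 over all windows. These matches describe letters only; no binding was measured.

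The Miga2 gene, the target in the MIGA2-KO line, was read in every library. Its mean level in CPM (the count relative to the TMM-scaled library size) was 15.65 for WT and 20.38 for MIGA2-KO before differentiation, and 162.2 for WT and 159.8 for MIGA2-GFP at day 6. At day 6 the libraries labelled MIGA2-KO held 925.7, 74.48 and 70.02 CPM. Neither MIGA2-KO nor MIGA2-GFP differed from WT past the threshold (edgeR adjusted p = 0.7082 at day 0, 0.157 for MIGA2-KO and 0.985 for MIGA2-GFP at day 6), so these tests do not check the labels. Replicates 2 and 3 of MIGA2-KO at day 6 lay below all WT day 6 libraries (145.2 to 181.8 CPM). Replicate 1 of MIGA2-KO at day 6 held the highest Miga2 level of the 15. That library also stood between the other MIGA2-KO day 6 libraries and WT in its cell markers. A list of 8 adipocyte genes (Adipoq, Fabp4, Cfd and others) summed to 14640 CPM in it and to 9056 and 9098 in the other pair, with WT at 41510 to 53260 and MIGA2-GFP at 27910 to 29790. A list of 8 preadipocyte and fibroblast genes (Pdgfra, Thy1, Dlk1 and others) summed to 6486 CPM in it and to 11540 and 10890 in the other pair, with WT at 2819 to 3001. Replicate 1 also stood apart in WT at day 0 and at day 6, where its log2 CPM correlated with the other replicates at 0.9657 to 0.9789 across genes, against 0.9905 to 0.9967 for pairs without any of these 3 libraries; genes are not independent, so no test is given. Library totals ran from 10748668 to 26003871 counts. Since no label tells whether replicates came from separate cultures, the p-values speak of the spread between these samples alone.

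All adipocyte markers were detected in each day 6 group. The brown fat marker Ucp1 had no count in any library. The macrophage list of 6 genes summed to 87.31 to 122.7 CPM at day 0 and 23.42 to 43.04 CPM at day 6, mostly Lyz2 (at most 98.7 CPM) and Cd14 (at most 24.5 CPM), with Ptprc at 0 counts in all groups and Adgre1 at 1 count in all. The epithelial list of 4 genes summed to at most 9.942 CPM, in WT at day 6, mostly Krt18, with Epcam and Cdh1 at 0 counts in all groups. The muscle list summed to at most 55.33 CPM, in MIGA2-GFP and mostly Des (Myod1 at 0 counts). The library labelled MIGA2-KO day 6 replicate 3 stood apart in 2 of its genes. Ckm was at 16.2 CPM and Acta1 at 22.6 CPM there, against at most 0.0854 and 1.36 CPM in any other library. The hepatocyte and endothelial lists summed to at most 4.484 and 1.221 CPM. In these bulk libraries fewer differentiated cells and less RNA per cell cannot be told apart.

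Differentiation of WT cells raised 7 of the 8 members with enough counts to test and lowered Plin3; Plin5 and Fitm1 had too few counts in all groups. Called here means a Benjamini-Hochberg adjusted p under 0.05 over all 12279 genes in edgeR's quasi-likelihood test. Of all genes tested, 64.8% were called over WT differentiation, 31.7% higher and 33.1% lower. In MIGA2-KO cells 7 members rose from day 0 to day 6 and none fell (5 rose when leaving out the library labelled MIGA2-KO day 6 replicate 1), with 44.3% of all genes called, 23.3% higher and 21% lower. Before differentiation Plin4 and Fitm2 were the members called between MIGA2-KO and WT, both higher in MIGA2-KO, where 33.9% of all genes were called, 16.1% higher and 17.7% lower.

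At day 6, 6 members were lower and 2 were higher in MIGA2-KO than in WT, so all 8 tested members were called, where 60.7% of all genes were, 29.2% higher and 31.5% lower. The lower members were Plin1, Plin2, Cidea, Cidec, Fitm2 and Bscl2, and the higher ones were Plin3 and Plin4. MIGA2-GFP differed from WT in Plin2 and Cidec, both lower, where 35.3% of all genes were called, 16.5% higher and 18.9% lower. Without the 3 libraries that stood apart 6 members were called there, the added ones being Plin1 (log2 fold change 0.59), Plin3 (0.19), Cidea (0.39) and Bscl2 (0.43), all higher in MIGA2-GFP. MIGA2-GFP exceeded MIGA2-KO in 5 members and was below it in Plin3 and Plin4, where 47.9% of all genes were called, 25.4% higher and 22.5% lower. The test of whether the change over time differed in the 2 lines called Plin2 and Fitm2, which rose less in MIGA2-KO, where 27.2% of all genes were called, 13.7% higher and 13.6% lower. All comparisons used 1 fit, MIGA2-KO and MIGA2-GFP share the WT day 6 controls, and the members passed the filter through the groups in which they are high, so these counts describe the members and are no test of the list. The 2 of 8 members called at day 0, in MIGA2-GFP against WT and in the change over time are a share near or below that of all genes.

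Median log2 fold changes over the 8 tested members were 4.87 over WT differentiation, 3.29 over MIGA2-KO differentiation, 0.02 for MIGA2-KO against WT at day 0, -1.05 for MIGA2-KO against WT at day 6, 0.15 for MIGA2-GFP against WT and 1.37 for MIGA2-GFP against MIGA2-KO. The day 0 median includes fitted values of Plin1, Cidea and Cidec, which had at most 4 counts over either day 0 group. Over all tested genes the corresponding medians were -0.04, 0.02, -0.03, -0.01, 0.00 and 0.01. With the library labelled MIGA2-KO day 6 replicate 1 left out, the members' median was 2.48 over MIGA2-KO differentiation, where it lies between Plin4 and the fitted value of Cidea, which had 1 count in the other pair. It was -1.38 for MIGA2-KO against WT at day 6 and 1.57 for MIGA2-GFP against MIGA2-KO.

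**Figure D1:**
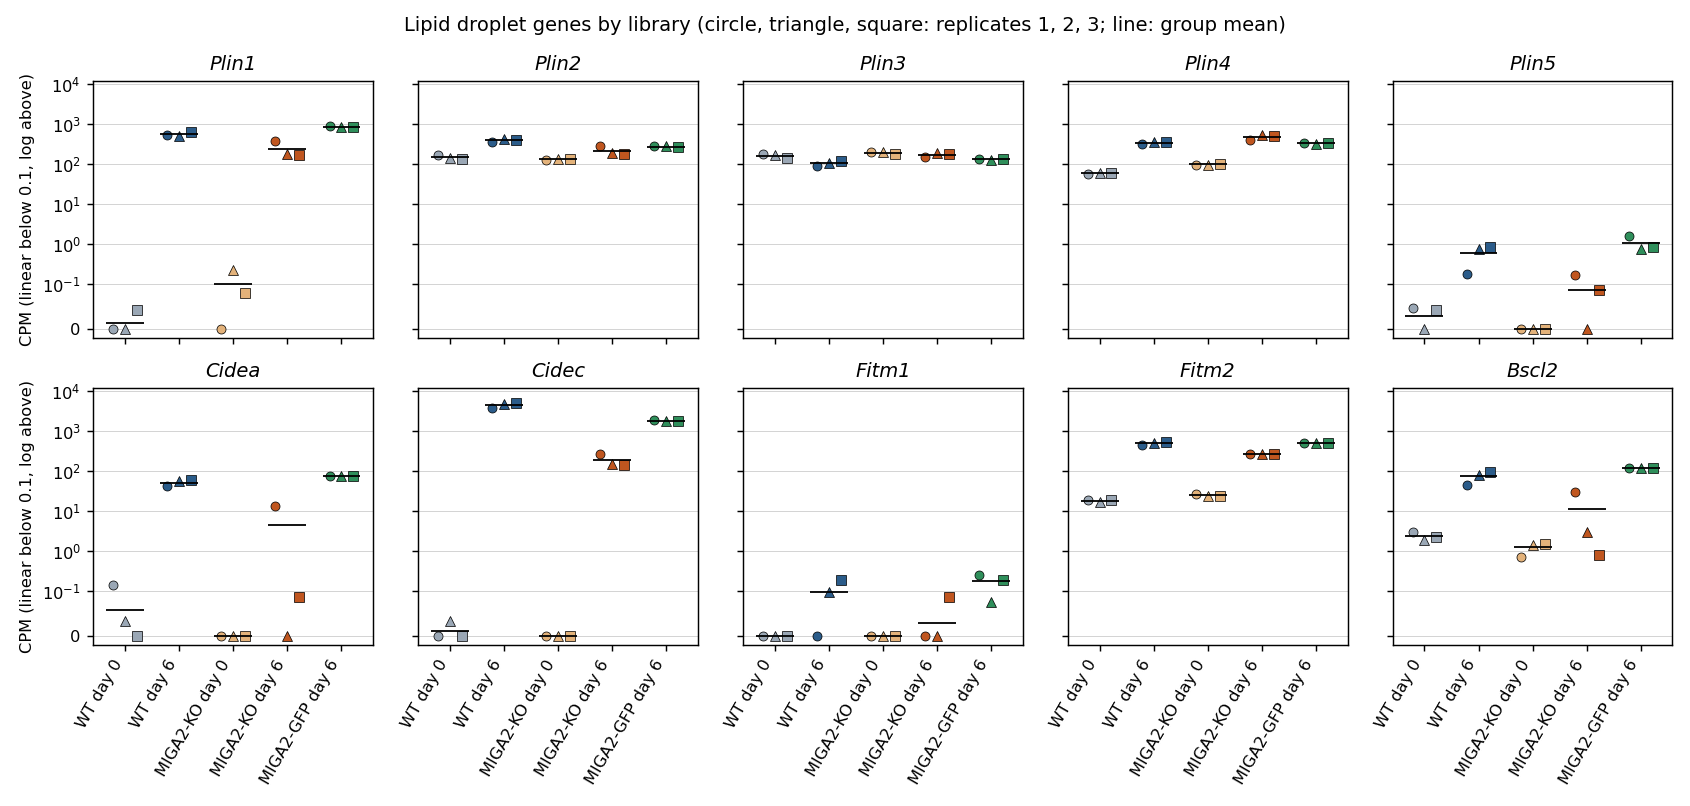
CPM of each of the 10 genes in each of the 15 libraries, on an axis that is linear below 0.1 and logarithmic above, with 1 symbol per replicate and a line at the group mean. Cidec spans the widest range, from 0 counts in MIGA2-KO at day 0 to a mean of 4603 CPM in WT at day 6, whereas Plin3 stays between 92.14 and 199.9 CPM in all libraries.

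Plin1 (ENSMUSG00000030546, chromosome 7: 79720218 to 79732903, reverse strand, GRCm38) codes for the main coat protein of large adipocyte droplets and holds back lipolysis until it is phosphorylated. Over the 3 WT day 0 libraries it had 1 count, and over the 3 MIGA2-KO day 0 libraries 4 counts. WT cells at day 6 held 527.8, 501.4 and 641.8 CPM, which is 557 ± 74.6 (SD, n = 3). The day 6 counts exceeded day 0 by a ratio of 41700 in WT (exact 95% counting interval 7470 to 1650000) and of 2290 in MIGA2-KO (893 to 8400), so Plin1 mRNA went from nearly absent to abundant in both lines. MIGA2-KO cells at day 6 held 371.8, 184.8 and 171.2 CPM, all below the lowest WT library. MIGA2-GFP cells held 883.7, 828.6 and 874.3 CPM, all above the highest WT library. Plin1 was lower in MIGA2-KO than in WT (log2 fold change -1.20 ± 0.25 SE, edgeR adjusted p = 0.0007855). It was higher in MIGA2-GFP than in MIGA2-KO (1.83 ± 0.25, edgeR adjusted p = 4.531e-05). Between MIGA2-GFP and WT the log2 difference was 0.63 ± 0.24 and did not pass in the fit to all 15 libraries (edgeR adjusted p = 0.05624); it passed in a fit to those 2 groups alone (0.63, edgeR adjusted p = 0.005384).

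Plin2 (ENSMUSG00000028494, chromosome 4: 86648386 to 86670060, reverse strand) codes for the coat protein of droplets in most cell types and was well expressed before differentiation. At day 0 WT libraries held 174.2, 142.8 and 135.9 CPM and MIGA2-KO libraries 127, 135.7 and 132.1 CPM. At day 6 the WT libraries rose to 364, 429.6 and 408.8 CPM. Those of MIGA2-KO stood at 281.1, 186.5 and 178.8 CPM, and those of MIGA2-GFP at 281.2, 279.6 and 263 CPM. All WT day 6 libraries thus exceeded all others, and the MIGA2-KO and MIGA2-GFP ranges met at the MIGA2-KO replicate 1. The rise was 1.41 ± 0.15 on the log2 scale in WT (edgeR adjusted p = 1.295e-06) and 0.71 ± 0.15 in MIGA2-KO (edgeR adjusted p = 0.001447). At day 6 Plin2 was lower than in WT by a log2 fold change of -0.90 ± 0.15 in MIGA2-KO (edgeR adjusted p = 0.0001715) and of -0.55 ± 0.15 in MIGA2-GFP (edgeR adjusted p = 0.01274). MIGA2-GFP against MIGA2-KO gave 0.35 ± 0.15 (edgeR adjusted p = 0.06831), and 0.56 leaving out the library labelled MIGA2-KO day 6 replicate 1 (edgeR adjusted p = 0.001288).

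Plin3 (ENSMUSG00000024197, chromosome 17: 56277476 to 56292873, reverse strand) codes for a soluble perilipin that moves from the cytosol onto nascent droplets. Its fall in WT was opposite to the rise of the other tested perilipins. The WT libraries held 176.6, 171.9 and 142.1 CPM at day 0 and 92.14, 106 and 122.3 CPM at day 6, without overlap. In MIGA2-KO the values were 197.4, 199.9 and 181.9 CPM at day 0 and 153.9, 185.6 and 183.8 CPM at day 6, which overlapped. MIGA2-GFP libraries held 132.4, 127.1 and 134.4 CPM, between the day 6 ranges of WT and MIGA2-KO. Plin3 fell over WT differentiation (log2 fold change -0.61 ± 0.12, edgeR adjusted p = 0.0003679), and its log2 change in MIGA2-KO was -0.15 ± 0.12 (edgeR adjusted p = 0.3441). The difference between these changes was 0.47 ± 0.17 and missed the threshold (edgeR adjusted p = 0.05114). Leaving out the library labelled MIGA2-KO day 6 replicate 1 gave 0.55 (edgeR adjusted p = 0.02214). At day 6 Plin3 was higher in MIGA2-KO than in WT (0.71 ± 0.12, edgeR adjusted p = 0.0001712) and lower in MIGA2-GFP than in MIGA2-KO (-0.41 ± 0.12, edgeR adjusted p = 0.01084).

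Plin4 (ENSMUSG00000002831, chromosome 17: 56100591 to 56109803, reverse strand), which codes for a perilipin of nascent adipocyte droplets, was higher in MIGA2-KO than in WT at both days. Day 0 libraries held 57.39, 61.02 and 60.56 CPM in WT and 97.91, 97.26 and 101.6 CPM in MIGA2-KO. At day 6 WT reached 323.6, 355 and 356.8 CPM and MIGA2-KO 413.1, 534.1 and 506.7 CPM, so no MIGA2-KO library fell within the WT range of its day. MIGA2-GFP, at 334.9, 319.7 and 345.8 CPM, overlapped WT. The log2 difference between MIGA2-KO and WT was 0.73 ± 0.10 at day 0 (edgeR adjusted p = 0.0001157) and 0.49 ± 0.10 at day 6 (edgeR adjusted p = 0.0006461). The rise over time was 2.53 ± 0.10 in WT and 2.29 ± 0.10 in MIGA2-KO (edgeR adjusted p = 3.575e-11 and 2.948e-10), and the difference of -0.24 ± 0.14 between them did not pass (edgeR adjusted p = 0.216). Plin4 was thus the member of the adipocyte perilipins whose level in MIGA2-KO exceeded WT, while Plin1 stood below it in the same libraries.

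Plin5 (ENSMUSG00000011305, chromosome 17: 56111601 to 56117596, reverse strand) had too few counts to test. At day 6 its counts were 2, 8 and 9 for WT, 2, 0 and 1 for MIGA2-KO, and 19, 10 and 9 for MIGA2-GFP. Day 0 libraries had 2 counts in all in WT and none in MIGA2-KO, where 3 counts over the group, the most that a count of 0 allows, would be 0.0792 CPM. The WT day 6 counts exceeded those of MIGA2-KO by a ratio of 7.03 (exact 95% counting interval 2.07 to 37.1). Intervals and floors cover counting error only. Plin5 made up at most 0.214% of the summed perilipin level per length, in a MIGA2-GFP library.

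Levels can be compared between genes only per length, and the counts were therefore divided by the length of each gene's combined exons to give CPM per kb. At day 0 perilipin mRNA was mostly Plin2 and Plin3. In WT Plin2 then made up 44.5% ± 2.3 (SD, n = 3), Plin3 44.7% ± 1.99 and Plin4 10.8% ± 1.37 of summed perilipin CPM per kb. In WT at day 6 Plin1 made up 37.1% ± 3.07, Plin2 35.5% ± 2.47, Plin4 18.6% ± 0.777 and Plin3 8.73% ± 0.54. In WT the make-up had thus moved in part toward the adipocyte coats Plin1 and Plin4, mainly at the expense of Plin3. Plin2 kept a share near that of Plin1 and exceeded it in replicate 2 (38.2% against 33.7%). In MIGA2-KO at day 6 Plin4 was the largest share in replicates 2 and 3, at 39.5% and 39.1%, where Plin1 made up 17% and 16.4%. In replicate 1 Plin4 made up 26.3%, under Plin1 and Plin2 at 29.4% each. Plin3 kept 19.2% ± 3.72 there, more than in any WT or MIGA2-GFP library at day 6. MIGA2-GFP was the group with the highest Plin1 share, at 52.0% ± 0.586, and its Plin2 share was 21.9% ± 1. The summed perilipin level at day 6 was 298 to 349 CPM per kb for WT, 224 to 272 for MIGA2-KO and 347 to 364 for MIGA2-GFP. These shares carry no test of their own.

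**Figure D2:**
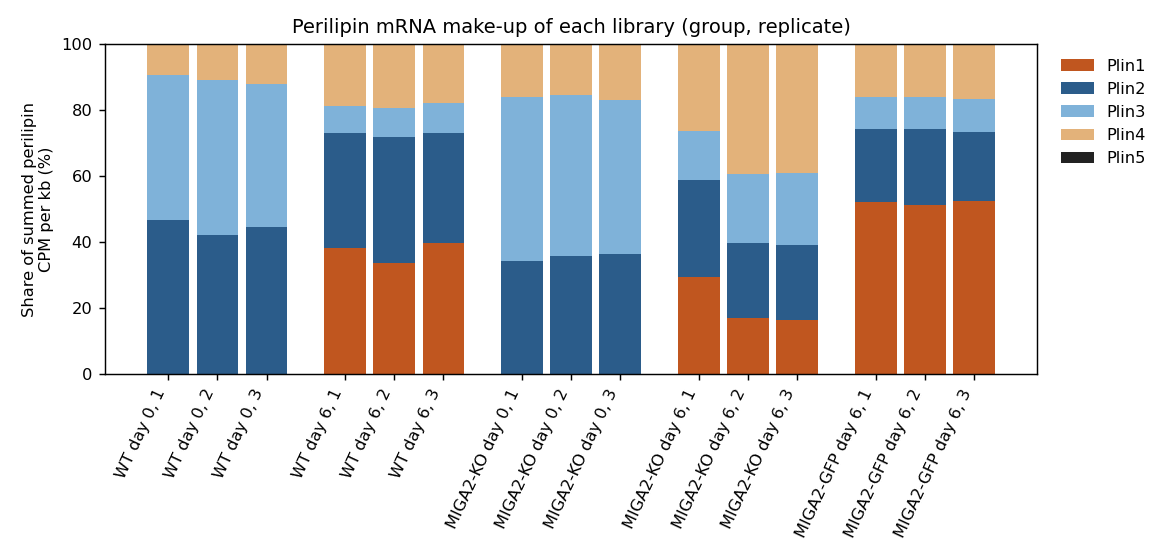
Share of each perilipin in the summed perilipin CPM per kb, in percent, 1 bar per library. Plin2 and Plin3 fill most of each day 0 bar, Plin1 takes 33.7% to 39.6% in WT at day 6 and 51.3% to 52.4% in MIGA2-GFP, and Plin4 and Plin3 take wider bands in MIGA2-KO at day 6 than in WT.

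Cidec (ENSMUSG00000030278, chromosome 6: 113424634 to 113435760, reverse strand) codes for the CIDE protein that enlarges droplets in white fat cells. It had the highest mean per length of the members in each day 6 group, though Plin4 stood above it in replicates 2 and 3 of MIGA2-KO. It had 1 count over the WT day 0 libraries and none in MIGA2-KO at day 0. WT at day 6 held 3881, 4779 and 5148 CPM (4603 ± 652, SD, n = 3). MIGA2-GFP held 1846, 1753 and 1775 CPM and MIGA2-KO 268.1, 151.9 and 146.1 CPM, so the 3 day 6 groups were far apart and did not overlap. The counts rose by a ratio of 343000 in WT (exact 95% counting interval 61600 to 13600000) and at least 2370-fold in MIGA2-KO, taking 3 counts over the 3 libraries as the floor. Cidec was 24.39-fold lower in MIGA2-KO than in WT (log2 fold change -4.61 ± 0.24, edgeR adjusted p = 2.336e-08), the largest decrease among the members in the fit to all libraries. In MIGA2-GFP it was 2.569-fold lower than in WT (-1.36 ± 0.21, edgeR adjusted p = 0.0005121) and 9.492-fold higher than in MIGA2-KO (3.25 ± 0.23, edgeR adjusted p = 4.921e-07).

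Cidea (ENSMUSG00000024526, chromosome 18: 67343604 to 67367785, forward strand), a CIDE gene best known from brown fat, was present in WT and MIGA2-GFP cells and nearly absent from all but 1 MIGA2-KO library. WT libraries at day 6 held 41.68, 55.46 and 58.53 CPM, up from 4 counts over the group at day 0 (ratio 967, exact 95% counting interval 377 to 3550). MIGA2-KO libraries at day 6 had 153, 0 and 1 counts, or 13.3, 0 and 0.0871 CPM. MIGA2-GFP libraries held 75.49, 73.44 and 76.93 CPM, all above WT. Against WT the fit to all libraries gave -3.55 ± 0.87 in MIGA2-KO (edgeR adjusted p = 0.003581) and 0.54 ± 0.73 in MIGA2-GFP (edgeR adjusted p = 0.5892). The latter passed in a fit to the WT and MIGA2-GFP day 6 libraries alone (0.53, edgeR adjusted p = 0.01852). With the library labelled MIGA2-KO day 6 replicate 1 left out, the WT counts exceeded MIGA2-KO by a ratio of 1220 (exact 95% counting interval 219 to 48200). The rise over time in MIGA2-KO, at least 55.3-fold over the group, rests on replicate 1: without it Cidea was no longer called (log2 fold change 2.57, edgeR adjusted p = 0.3134). Of the brown fat list, Cox8b and Elovl3 moved with Cidea, at 30.3, 4.04 and 4.62 CPM (Cox8b) and 1.3, 0 and 0 (Elovl3) in MIGA2-KO at day 6. Dio2 did not, at 0.348, 0.165 and 0.435 CPM there and 0 in all MIGA2-GFP libraries. Ucp1 had no count and Prdm16 had 1 count in MIGA2-KO at day 6. Summed over its 5 genes the list, mostly Cox8b and Elovl3, stood at 31.91, 4.202 and 5.138 CPM in MIGA2-KO at day 6. The day 6 sums were 73.24 to 139 for WT and 96.8 to 98.29 for MIGA2-GFP. The part of these markers in the Cidea result was not tested.

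Ratios within a library do not depend on its depth or scaling. The libraries of WT at day 6 had 7.35, 9.53 and 8.02 Cidec reads per Plin1 read, those of MIGA2-GFP 2.09, 2.12 and 2.03, and those of MIGA2-KO 0.721, 0.822 and 0.854. The 3 groups did not overlap, and MIGA2-KO replicate 1 lay with the other MIGA2-KO libraries on this measure. Plin2 reads per Plin3 read were 3.95, 4.05 and 3.34 in WT at day 6, 2.12, 2.2 and 1.96 in MIGA2-GFP, and 1.83, 1 and 0.973 in MIGA2-KO. At day 0 that ratio was 0.831 to 0.986 in WT and 0.643 to 0.726 in MIGA2-KO, so all day 6 libraries of each line lay above its own day 0 libraries. Cidea reads per Cidec read were 0.0107, 0.0116 and 0.0114 in WT and 0.0409, 0.0419 and 0.0433 in MIGA2-GFP, so the balance of the CIDE genes differed between these groups by more than the spread within them. In MIGA2-KO that ratio was 0.0496 in replicate 1, near the MIGA2-GFP libraries, and 0 and 0.000596 in the others.

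**Figure D3:**
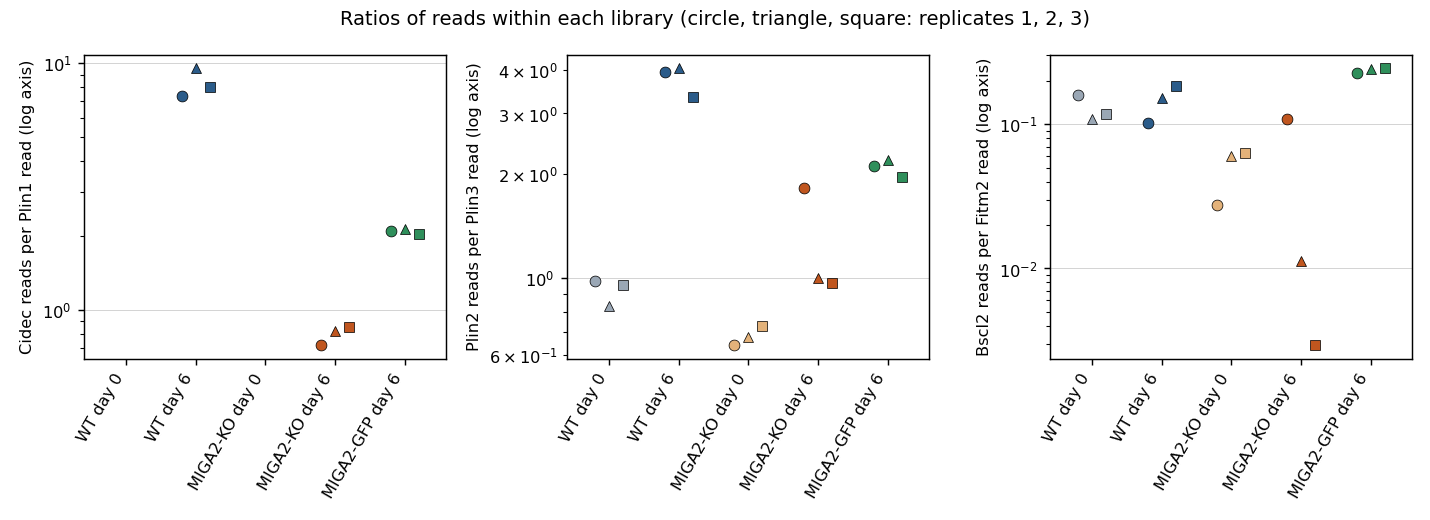
Reads of one gene per read of another in each library, on logarithmic axes, for Cidec per Plin1, Plin2 per Plin3 and Bscl2 per Fitm2; Cidec per Plin1 has no value at day 0, where Plin1 had at most 3 counts in a library. Cidec per Plin1 separates the day 6 groups, and the library labelled MIGA2-KO day 6 replicate 1 stands with its group there but above it for Bscl2 per Fitm2.

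Fitm2 (ENSMUSG00000048486, chromosome 2: 163466379 to 163472629, reverse strand) codes for the widely expressed FIT protein, a membrane protein of the endoplasmic reticulum needed for normal droplet budding. Its difference between the lines changed sign between the days. At day 0 MIGA2-KO libraries held 26.24, 24.16 and 24.49 CPM, above WT at 18.58, 17.18 and 18.89 CPM. At day 6 MIGA2-KO libraries held 272.8, 265 and 265.2 CPM, below WT at 449.1, 512.9 and 528 CPM. MIGA2-GFP, at 511.7, 493.9 and 494.3 CPM, lay inside the WT range. The log2 difference between MIGA2-KO and WT was 0.46 ± 0.09 at day 0 (edgeR adjusted p = 0.001755) and -0.89 ± 0.09 at day 6 (edgeR adjusted p = 1.154e-06). Fitm2 rose by 4.77 ± 0.10 in WT and by 3.42 ± 0.10 in MIGA2-KO (edgeR adjusted p = 9.818e-14 and 4.021e-12), and the difference between these rises passed (-1.35 ± 0.12, edgeR adjusted p = 3.489e-06). The library labelled MIGA2-KO day 6 replicate 1, which stood apart for most members, had 1.03 times the mean Fitm2 level of the other pair, and the difference between the rises was -1.36 without it. MIGA2-GFP exceeded MIGA2-KO by 0.90 ± 0.09 (edgeR adjusted p = 2.268e-06).

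Fitm1 (ENSMUSG00000022215, chromosome 14: 55575617 to 55576954, forward strand), the FIT gene known from muscle, was not detectable at day 0, with 0 counts in all 6 libraries. At day 6 it had 0, 1 and 2 counts in WT, 0, 0 and 1 in MIGA2-KO and 3, 1 and 2 in MIGA2-GFP, too few to compare. Fitm2 therefore supplied nearly all FIT mRNA reads. Per length Fitm2 stood at 125 ± 10.6 CPM per kb in WT at day 6 and Fitm1 at 0.1 ± 0.1.

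Bscl2 (ENSMUSG00000071657, chromosome 19: 8837467 to 8848683, forward strand) codes for seipin, a ring-shaped protein at the site where droplets grow out of the endoplasmic reticulum, and its loss causes congenital lipodystrophy. WT libraries held 2.971, 1.863 and 2.237 CPM at day 0 and 45.84, 78.36 and 96.68 CPM at day 6. MIGA2-GFP libraries were higher, at 116.3, 119.4 and 120.4 CPM. MIGA2-KO libraries held 0.722, 1.453 and 1.541 CPM at day 0 and 29.73, 2.966 and 0.784 CPM at day 6, so replicates 2 and 3 were near their day 0 level and replicate 1 was not. The rise was 4.98 ± 0.80 in WT (edgeR adjusted p = 6.59e-05). In MIGA2-KO it was 3.16 ± 0.93 (edgeR adjusted p = 0.01265), and 0.61 and no longer called without replicate 1 (edgeR adjusted p = 0.4212). At day 6 Bscl2 was lower in MIGA2-KO than in WT (-2.73 ± 0.71, edgeR adjusted p = 0.004301), and -5.27 without replicate 1, where the counts gave a WT to MIGA2-KO ratio of 38.3 (exact 95% counting interval 28.5 to 52.6). The difference between the lines in the rise was -1.82 ± 1.28 (edgeR adjusted p = 0.3133), and -4.37 without replicate 1 (edgeR adjusted p = 0.0002725). MIGA2-GFP exceeded MIGA2-KO by 3.41 ± 0.72 (edgeR adjusted p = 0.001453), and its difference from WT, 0.69 ± 0.64, did not pass (edgeR adjusted p = 0.4185). Bscl2 reads per Fitm2 read at day 6 were 0.102 to 0.183 for WT, 0.227 to 0.244 for MIGA2-GFP, and 0.109, 0.0112 and 0.00296 for MIGA2-KO, so the MIGA2-KO replicate 1 lay within the WT range. Bscl2 overlaps Gng3 on the opposite strand over 1728 bases, and Gng3 had at most 15 counts in any group. It also overlaps AC129217.1, a protein-coding gene on the same strand, over 3671 bases, and AC129217.1 was not among the counted genes. How reads from these shared bases were assigned is not known, which limits all Bscl2 levels given here.

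**Figure D4:**
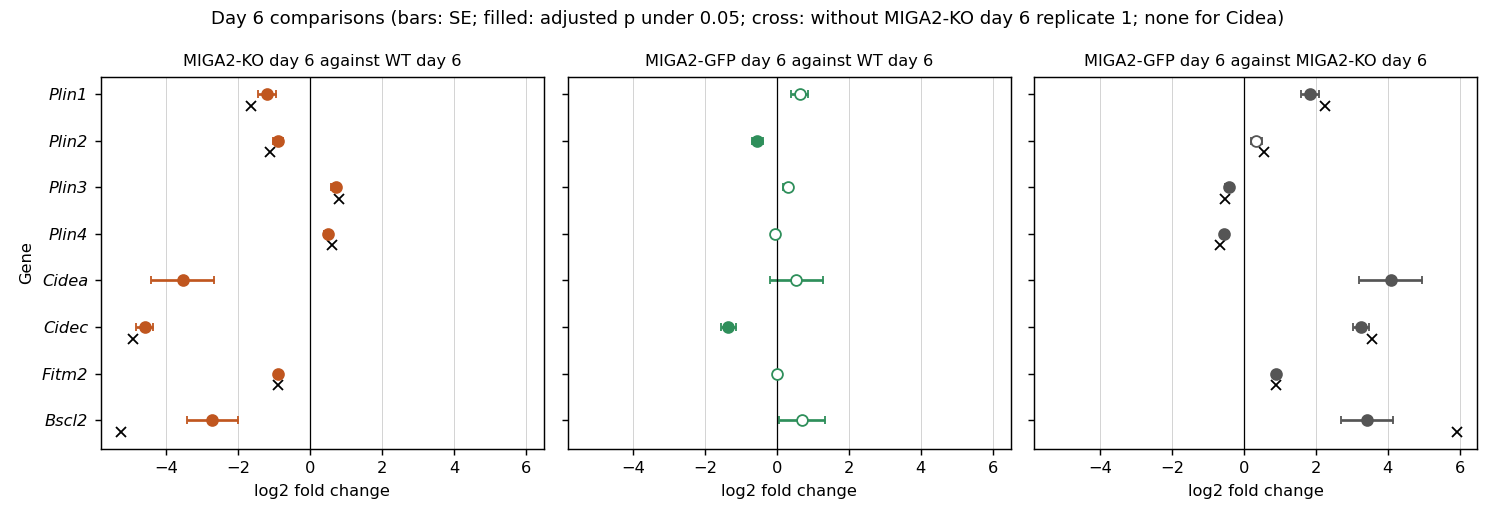
Log2 fold changes of the 8 tested members in the 3 comparisons at day 6, with bars of 1 SE, filled points where the edgeR adjusted p was under 0.05, and crosses for the value leaving out the library labelled MIGA2-KO day 6 replicate 1 (none for Cidea, which had 1 count in the other pair). Cidec, Cidea and Bscl2 lie farthest below 0 for MIGA2-KO against WT, Plin3 and Plin4 lie above 0, and the crosses of Bscl2 lie farthest from the points.

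The comparisons with MIGA2-KO at day 6 were repeated leaving out the library labelled MIGA2-KO day 6 replicate 1. All 8 members were again called between MIGA2-KO and WT with the same sign, and Plin5, which then passed the filter, made 9, where 59.6% of 12479 genes were called. The same 9 members were called between MIGA2-GFP and MIGA2-KO, with 48% of all genes called, and those that differed in the change over time were Plin1, Plin2, Plin3, Fitm2 and Bscl2, 5 in all, with 29.3% of all genes called. Over time in MIGA2-KO, 5 members were called with 39.2% of all genes called.

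The order of the members per length changed with differentiation and with the line. At day 0 the order in WT was Plin3 (43.2 ± 4.94 CPM per kb) and Plin2 (43 ± 5.81), whose ranges overlapped, then Plin4 (10.3 ± 0.342), Fitm2 (4.59 ± 0.23) and Bscl2 (0.4 ± 0.0955). In MIGA2-KO at day 0 the same 5 genes led, with Plin3 (51 ± 2.57) clear of Plin2 (37.5 ± 1.25). The day 6 order in WT was Cidec (2480 ± 351), then Fitm2 (125 ± 10.6), Plin1 (120 ± 16.1) and Plin2 (114 ± 9.56), which overlapped their neighbours, then Plin4 (59.7 ± 3.23), Cidea (46.5 ± 8.05), Plin3 (28.2 ± 3.99) and Bscl2 (12.5 ± 4.37). MIGA2-GFP had Cidec (965 ± 26.3) first, then Plin1 (185 ± 6.34), Fitm2 (126 ± 2.56), Plin2 (78.2 ± 2.88), Cidea (67.5 ± 1.57) and Plin4 (57.7 ± 2.27), with no overlap between neighbours. In MIGA2-KO at day 6 Cidec (102 ± 37.1) overlapped Plin4 (83.9 ± 11), which was followed by Fitm2 (67.5 ± 1.13), Plin2 (61.3 ± 16.2), Plin1 (52.2 ± 24.1) and Plin3 (46.1 ± 4.71), each overlapping the next. Cidea and Bscl2 came after these in every MIGA2-KO library. The lead of Cidec over all other members, seen in every WT and MIGA2-GFP library at day 6, was thus not seen as a gap between ranges in MIGA2-KO. In its replicates 2 and 3 Plin4 stood at 92.4 and 87.7 CPM per kb, above Cidec at 81.9 and 78.7.

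Adipocyte markers were lower in MIGA2-KO at day 6 as well, and the members were therefore also set against the summed CPM of the 8 adipocyte genes in the same library. Per 1000 CPM of that sum, Cidec stood at 93.5 ± 3.11 in WT (SD, n = 3), 61.9 ± 1.76 in MIGA2-GFP and 17.1 ± 1.15 in MIGA2-KO. Bscl2 stood at 1.1, 1.48 and 1.82 in WT and at 2.03, 0.328 and 0.0862 in MIGA2-KO, where replicate 1 exceeded all WT libraries. Cidea stood at 1 to 1.1 in WT and at 0.909, 0 and 0.00957 in MIGA2-KO. On this scale Cidec and Cidea thus lay below WT in all MIGA2-KO libraries, and Bscl2 in replicates 2 and 3. By contrast Plin1 stood at 11.4 ± 1.7 in WT and 21.5 ± 3.43 in MIGA2-KO, Plin2 at 8.19 ± 0.549 and 19.8 ± 0.709, and Fitm2 at 10.1 ± 0.593 and 25.7 ± 6.1. On this scale Plin1, Plin2 and Fitm2 were thus above WT in every MIGA2-KO library, the opposite of their order in CPM. Plin3 stood at 2.17 ± 0.15 in WT and 17.1 ± 5.68 in MIGA2-KO. Plin4 stood at 7.07 ± 0.628 and 47.6 ± 16.9. Both were above WT in every MIGA2-KO library, as in CPM. Plin1, Plin2 and Fitm2 were also above WT in every MIGA2-GFP library, at 29.8 ± 1.47 (Plin1), 9.48 ± 0.0859 (Plin2) and 17.3 ± 0.404 (Fitm2). For Plin2 this was again the opposite of the order in CPM. Plin3, Plin4, Cidea and Bscl2 were above WT in every MIGA2-GFP library too, so Cidec was the tested member below WT there. The marker sum itself was lower than WT in every MIGA2-KO and MIGA2-GFP library. The part of the adipocyte and fibroblast marker difference in the CPM result was not tested.

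Other genes of droplet metabolism were given by lists. The lipolysis list holds Pnpla2 (adipose triglyceride lipase), its activator Abhd5, its inhibitors G0s2 and Hilpda, Lipe (hormone-sensitive lipase), Mgll and Pnpla3. All 7 rose over WT differentiation, where 31.7% of all genes did, with a median log2 fold change of 6.53. All 7 were lower in MIGA2-KO than in WT at day 6, where 31.5% of all genes were, with a median of -2.01 against -0.01 over all genes. The decreases with the largest size were -4.71 ± 0.71 for Pnpla3, -3.41 ± 0.62 for G0s2, -3.20 ± 0.28 for Mgll and -2.01 ± 0.18 for Pnpla2. Pnpla2 mRNA stood at 1867 ± 490 CPM in WT, 464.9 ± 19.1 in MIGA2-KO and 1231 ± 52.4 in MIGA2-GFP. With the library labelled MIGA2-KO day 6 replicate 1 left out, all 7 were again lower, G0s2 moved to -4.86, and Pnpla3 moved to -8.33, a fitted value that rests on few counts. MIGA2-GFP had 3 of the 7 lower than WT (Abhd5, Hilpda and Pnpla2) and none higher, where 35.3% of all genes were called.

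The list of droplet formation and triacylglycerol synthesis holds 17 tested genes, among them the acyltransferases Dgat1, Dgat2, Agpat2, Gpat3 and Gpat4 and the seipin partner Tmem159. Of these 10 rose and 3 fell over WT differentiation (median 0.89), where 64.8% of all genes were called, led by Dgat2 at 8.56 ± 0.83, Acsl1 at 7.70 ± 0.30, Gpat3 at 5.90 ± 0.33 and Agpat2 at 5.69 ± 0.19. At day 6, 9 were lower and 3 higher in MIGA2-KO than in WT (median -0.88), where 31.5% of all genes were lower and 29.2% higher. Dgat2, the enzyme of the last step of triacylglycerol synthesis, was at -4.22 ± 0.66, Acsl1, which activates fatty acids and is also in the adipocyte list, at -2.92 ± 0.24, Tmem159 at -1.87 ± 0.32 and Gpat4 at -1.85 ± 0.17. Dgat2 shared the spread of Bscl2 in MIGA2-KO at day 6, at 61.41 ± 79 CPM against 1142 ± 200 in WT, and it moved to -6.17 without replicate 1. Tmem159 moved to -2.50 without that library, and Acsl3, not called in the fit to all libraries (-0.49), was called at -1.09. Rab18, a droplet GTPase, and its exchange factor subunit Rab3gap1 were higher in MIGA2-KO than in WT, with Pcyt1a, the rate-limiting enzyme of phosphatidylcholine synthesis. In MIGA2-GFP 5 genes of the list were higher than in WT and 1, Agpat2, was lower, a share near the 35.3% of all genes. The change over time differed between the lines for 10 genes, with 9 lower in MIGA2-KO and Pcyt1a higher, where 27.2% of all genes were called.

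Of 14 tested genes for other droplet-associated proteins, 7 rose and 2 fell over WT differentiation, a share near the 64.8% of all genes called. At day 6, 9 were lower and 2 higher in MIGA2-KO than in WT (median -0.62), where 31.5% of all genes were lower and 29.2% higher. The largest differences were -2.53 ± 0.19 for the retinal reductase Dhrs3, -2.09 ± 0.10 for the sterol enzyme Nsdhl, -1.21 ± 0.26 for Mettl7b and 1.15 ± 0.11 for the phospholipid acyltransferase Lpcat1. Cideb, the CIDE gene of liver, was lower in MIGA2-KO (-1.10 ± 0.36) and higher in MIGA2-GFP (1.48 ± 0.28) than in WT. Cidec was lower than WT in both.

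Among the 7 tested PPAR and C/EBP regulators, 6 rose and 1, Ppargc1a, fell over WT differentiation (median 1.67), where 64.8% of all genes were called. At day 6, 3 were lower in MIGA2-KO than in WT and 2 were higher, a share near the 60.7% of all genes. Cebpa was at -2.77 ± 0.20, Pparg at -0.90 ± 0.08, Ppard at -0.84 ± 0.12 and the coactivator Ppargc1a at 2.78 ± 0.35. Pparg mRNA stood at 295 ± 0.885 CPM in WT, 158.2 ± 4.08 in MIGA2-KO and 189.4 ± 7.34 in MIGA2-GFP at day 6. Cebpa stood at 209.5 ± 15.7, 30.64 ± 8.86 and 113.7 ± 5.78 CPM in the same order. Both were lower in MIGA2-GFP than in WT, at -0.64 ± 0.08 for Pparg and -0.88 ± 0.19 for Cebpa, and these were the members of this list called there. At day 0 Pparg was higher in MIGA2-KO than in WT (0.87 ± 0.09) and Cebpa lower (-3.40 ± 0.33).

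At day 0, where 33.9% of all genes were called between MIGA2-KO and WT, the lists were called in 1 of 7 lipolysis genes (Mgll, lower), 2 of 17 formation genes (Nbas and Pcyt1a, higher) and 7 of 14 other droplet genes (4 higher and 3 lower). All fold changes of the lists are from edgeR's quasi-likelihood test, adjusted over all genes.

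The genes whose log2(CPM + 0.5) followed a member most closely over the 15 libraries are given with Pearson's r as a description, since the points share 5 groups and the strong difference between the days. For Plin1 they were Itih4 (0.997), the fatty acid transporter Cd36 (0.996) and Fbxo45 (0.9959). For Plin2 they were Idh3g (0.9858), Chchd4 (0.9853) and Ppa1 (0.9844). Plin3 was followed by Tnfsfm13 (0.9752), Adamtsl5 (0.9735) and Lrfn4 (0.9721), and Bscl2 by Dpep2, present under 2 identifiers (0.9891 and 0.988), and Ankrd35 (0.9877). Cidec was followed by Syn2 (0.9987), Fam83a (0.9985) and Acadm (0.9985), Cidea by the glyceroneogenic enzyme Pck1 (0.9951), Plin4 by Cry2 (0.9957) and Fitm2 by A530016L24Rik (0.9975). Among the members themselves Plin1 followed Fitm2 (0.9956), and Bscl2 followed Cidea (0.9872); both genes of the latter pair stood far above their group in the library labelled MIGA2-KO day 6 replicate 1, by 15.9 times (Bscl2) and 305 times (Cidea) the mean of the other pair. Plin3 ran opposite to Plin2 (-0.8525). Plin1 and Bscl2, at 0.8184, were less alike.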

How the data were processed

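RNA of 3T3-L1 cells (5 groups of 3 libraries) was made into stranded TruSeq libraries, per the labels' protocols. The submitters' processing notes name bcl2fastq 2.19, Trimmomatic, STAR 2.5.4b, featureCounts, edgeR and the build GRCm38.p5. The deposited values are raw counts per Ensembl gene, and the sources used here do not give the annotation release or the strand setting of counting. Without the strand setting, reads of Bscl2 and Gng3, and of Fitm2 and its antisense gene, may not be told apart. Reads of Bscl2 and AC129217.1, which share a strand, may not be told apart under any strand setting. Members' symbols, positions and exon lengths came from GENCODE vM21.

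The test was edgeR 4.0.16 in R 4.3.3 (filterByExpr with minimum count 10 and minimum total 15, TMM scaling, quasi-likelihood fit with 1 term per group to all 15 libraries, two-sided tests, Benjamini-Hochberg adjustment over 12279 genes, threshold 0.05). The common biological coefficient of variation was 15.96%. The SE of a log2 fold change is its size over the root of the F statistic. For groups with at most 10 counts, count ratios with exact 95% intervals are given, or bounds against 3 counts over the group. The code was tested on simulated data. Members and lists were chosen with earlier results of these data known. All members are reported. Likeness was taken as the 3 tested genes with the highest r, and at most 4 called genes per list are named by size of change. Same-numbered replicates did not pair (deviations correlated at -0.785 to 0.165). Differently numbered libraries of WT at day 0 and WT at day 6 correlated at -0.488 to 0.787. The highest value was for WT day 0 replicate 3 with WT day 6 replicate 1. A block by replicate number does not cover such pairs. Alternatives were RLE scaling, DESeq2 1.42.0, no filter, a replicate block, fits to the compared groups, voom with a spread per group (limma 3.58.1), robust dispersion, leaving out each library, and leaving out the 3 libraries that stood apart.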

Additional observations from a re-analysis of the deposited data

Results flagged for a closer look

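The change over time differed between MIGA2-KO and WT for Plin2 and Fitm2 when that difference was tested. Plin2 rose by 0.71 in MIGA2-KO and 1.41 in WT on the log2 scale, a difference of -0.70 ± 0.21 (edgeR adjusted p = 0.02533). This call is fragile: it was lost in 8 of the 12 fits that left out 1 library, where the difference ran from -0.93 to -0.58, and in the fit to the 4 groups of the comparison (edgeR adjusted p = 0.05058). Fitm2 rose by 3.42 in MIGA2-KO and 4.77 in WT, a difference of -1.35 ± 0.12 (edgeR adjusted p = 3.489e-06), and passed in all 12 such fits, at -1.42 to -1.30. For Cidea and Cidec the same test has no useful value, since MIGA2-KO had no count of either gene at day 0.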

How the results depend on the processing

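Of 417 values of the members under alternatives other than leaving out 1 library, 392 kept their direction and side of the threshold, 17 became called, 5 lost the call and 3 changed sign; DESeq2 gave no adjusted p for Cidea, and those values are left out. Leaving out 1 library at a time gave 366 values, of which 346 kept both, 7 became called, 11 lost the call and 2 changed sign. The changes of sign are all Fitm2 in MIGA2-GFP against WT, which was not called: -0.003521 with RLE scaling, -0.0034 with DESeq2 and -0.06528 without the 3 libraries that stood apart, with -0.07818 to 0.03804 when 1 library was left out. Members called in MIGA2-GFP against WT were 2, but 4 with voom, 4 in the fit to those groups and 6 without the 3 libraries that stood apart, where all genes called went from 4338 to 7625. Members that differed in the change over time were 2, but 4 with DESeq2, 1 in the fit to those groups and 5 without the 3 libraries, where all genes called went from 3346 to 7655. Leaving out 1 library gave 1 to 5 members and 2541 to 5186 genes for that difference, and 2759 to 5419 genes for MIGA2-GFP against WT; the first held 5 members without MIGA2-KO day 6 replicate 1, 1 member without replicate 2 of WT at day 0 or day 6, or replicate 2 or 3 of MIGA2-KO at day 0 or day 6, and 5186 genes without WT day 0 replicate 1, and the second held 2759 genes without WT day 6 replicate 2. With the replicate number as a block, the members called were 8, 7, 2, 8, 2, 7 and 2 in the 7 comparisons, as without it, and the change over time was called for 2790 genes; no call count moved by over 1.5 times. RLE scaling moved the median of all genes by at most 0.0269 on the log2 scale. Depth limits Plin5 and Fitm1, which were not tested. The cause of these differences was not tested.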
